A study of Homo sapiens with 9 samples.

Results

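The genes described are the members of the tumour necrosis factor (TNF) ligand and receptor superfamilies, taken by gene symbol: every TNFSF and TNFRSF symbol in the annotation together with TNF, LTA, LTB, LTBR, CD40, CD40LG, CD27, CD70, FAS, FASLG and NGFR. The rule found 43 of 61180 gene names, 17 ligands and 26 receptors. It used no measured value, but it was chosen with earlier results of these data known. All samples were macrophages made from THP-1, a human monocytic leukaemia line of wild-type genotype, with 250 nM PMA (a phorbol ester) for 48 h. They formed 3 groups of 3 libraries: macrophages proximal to HER2+ MDA-MB-231 tumour cells (from human breast cancer) after 24 h of coculture, macrophages distal to those cells in coculture, and monocultured macrophages. In the cocultures the HER2-binding protein ZHER fused to β-galactosidase (ZHER-βGal) released a biotin probe beside the tumour cells, and trypsin-dissociated cells were sorted by streptavidin signal. The ratio of macrophages to tumour cells is given as 20 in the series design and as 40 in the growth protocol. Whether monocultured cells were labelled and sorted was not stated in the sources used here. The count tables are lettered H, L and M, which were taken to stand for high labelling in the proximal group, low labelling in the distal group, and monoculture. No label states that key in words, and the sign of every difference between proximal and distal libraries rests on it. Nothing states that replicates came from separate cultures, so p-values measure the spread between these samples, which may be technical.

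Ligands of this superfamily are mostly trimeric membrane proteins, some of them shed by proteases, and they act by clustering receptors on neighbouring cells. Receptors with a cytoplasmic death domain can recruit caspases, other signalling receptors bind TRAF adaptors and activate NF-kappaB, and decoy or soluble receptors hold ligand without a full signal. Macrophages are a main source of TNF and display several of the costimulatory ligands and CD40.

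Library totals were 13581994 to 16447199 read pairs. Proximal replicate 3 and distal replicate 2 stood apart from their own replicates, with a chi-square per degree of freedom of 11.8 to 27.1 against the others of their groups, where proximal replicates 1 and 2 gave 3.10 and distal replicates 1 and 3 gave 2.57. The macrophage label was checked against 18 markers, by their summed CPM (counts scaled to a common library total). That sum was 4157 to 4726 CPM in proximal libraries, 3462 to 3971 in distal and 5581 to 6154 in monocultured ones. Of 15 tested macrophage markers, edgeR called 3 higher and 10 lower in proximal libraries than in monoculture. For distal libraries against monoculture it called 2 higher and 10 lower, and for proximal against distal 6 and 3. Among the 18 markers, CSF1R, ITGAX and SPI1 were abundant, and CD68, MRC1 and AIF1 were near 0. Pairs that overlap several genes or map to several places were not counted. What that took from these markers was not tested, so a count near 0 need not mean that the transcript was absent. The summed level of 22 tumour cell markers ran from 1213 to 1524 CPM in proximal libraries, from 745 to 821 in distal and from 660 to 742 in monocultured ones. Most of that sum was NT5E, and without it the ranges were 110 to 121, 94.8 to 107 and 46.7 to 52.1 CPM. KRT18 and EPCAM, which mark epithelial cells, had 0 counts in all 9 libraries. They did not stand for the whole tumour cell list. Of its 15 tested markers, edgeR called 7 higher and 1 lower in proximal libraries than in monoculture. For distal libraries against monoculture the calls were 7 higher and 0 lower, and for proximal against distal 3 and 3. Mean EGFR was 2.36 CPM in monoculture, while proximal libraries had 17.3 and distal ones 17.6. AXL, of the same list, went the other way. Its means of 3.23 CPM in proximal and 8.91 CPM in distal libraries were both below that of monoculture. DKK1, KRT19 and KRT81 had at most 1 count in any group. Of 8 proliferation markers, 8 were lower in proximal than in distal libraries, and their summed level was 109 to 146 CPM against 266 to 303, with 196 to 221 in monocultured libraries. The summed level of 8 markers of undifferentiated monocytes ran from 27.6 to 44.9 CPM in proximal libraries, from 122 to 137 in distal and from 213 to 248 in monocultured ones. The part of these shifts in the member differences was not tested.

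Between the 2 sort gates, 6 of 23 tested members were higher in proximal libraries, 4 were lower and 13 were not called. Of all genes tested, 8.4% were higher and 7.93% lower. CD40, TNFRSF10B, TNFSF15, CD70, TNFSF11 and TNFRSF18 were higher in both gates than in monoculture (CD40 by 3.30-fold in proximal and 3.22-fold in distal libraries), and TNFSF14, TNFSF13, TNFRSF10A and TNFRSF21 were lower in both (TNFSF14 by 4.50-fold and 5.60-fold). Between the gates, TNFRSF10D, TNFSF15, TNFRSF11A, TNFRSF10A, TNFRSF10B and TNFRSF1B were higher in proximal libraries, and TNFSF10, TNFSF4, CD70 and TNFRSF9 were higher in distal ones. The gate calls of TNFRSF10A and TNFRSF1B were lost in 10 and 5 of 19 alternative settings. Of the 43 members, 23 had enough counts to be tested: 9 of 17 ligands, 5 of 7 death-domain receptors, 7 of 15 other signalling receptors and 2 of 4 decoy or soluble receptors. In these sorted bulk samples, fewer cells carrying a transcript and less of it per cell cannot be told apart.

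In proximal against distal libraries, 6 tested members rose, 4 fell and 13 did not pass an adjusted p of 0.05 (edgeR's quasi-likelihood test, Benjamini-Hochberg adjustment over 15427 genes). Of all 15427 genes, 8.4% were called higher and 7.93% lower, 16.3% in all, against 43.5% of the tested members. With upper-quartile scaling the split was 4 higher and 6 lower, and without proximal replicate 3 and distal replicate 2 it was 5 higher and 7 lower. Against monoculture, 11 members rose and 5 fell in proximal libraries (69.6% called), beside 22.4% and 23.1% of all genes, 45.5% in all. In distal libraries 9 rose and 4 fell against the same monocultures (56.5% called), beside 20.7% and 21.7% of all genes, 42.4% in all. The median log2 fold change of the tested members was 0.03 between the gates (0.01 over all genes), 0.32 for proximal against monocultured libraries (0.00 over all genes) and 0.13 for distal against monocultured libraries (0.01 over all genes). The 3 libraries of one group lay wholly above or below those of the other for 14 of 23 members between the gates, beside 31.5% of all genes, for 17 in proximal against monocultured libraries, beside 52.9%, and for 16 in distal against monocultured libraries, beside 54.1%. Both comparisons with monoculture share the same 3 control libraries. TNFRSF18 and TNFSF11 reached the count filter in 3 libraries of each gate but in only 1 and 2 monocultured libraries, and TNFRSF11B in 2 proximal libraries.

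**Figure D1:**
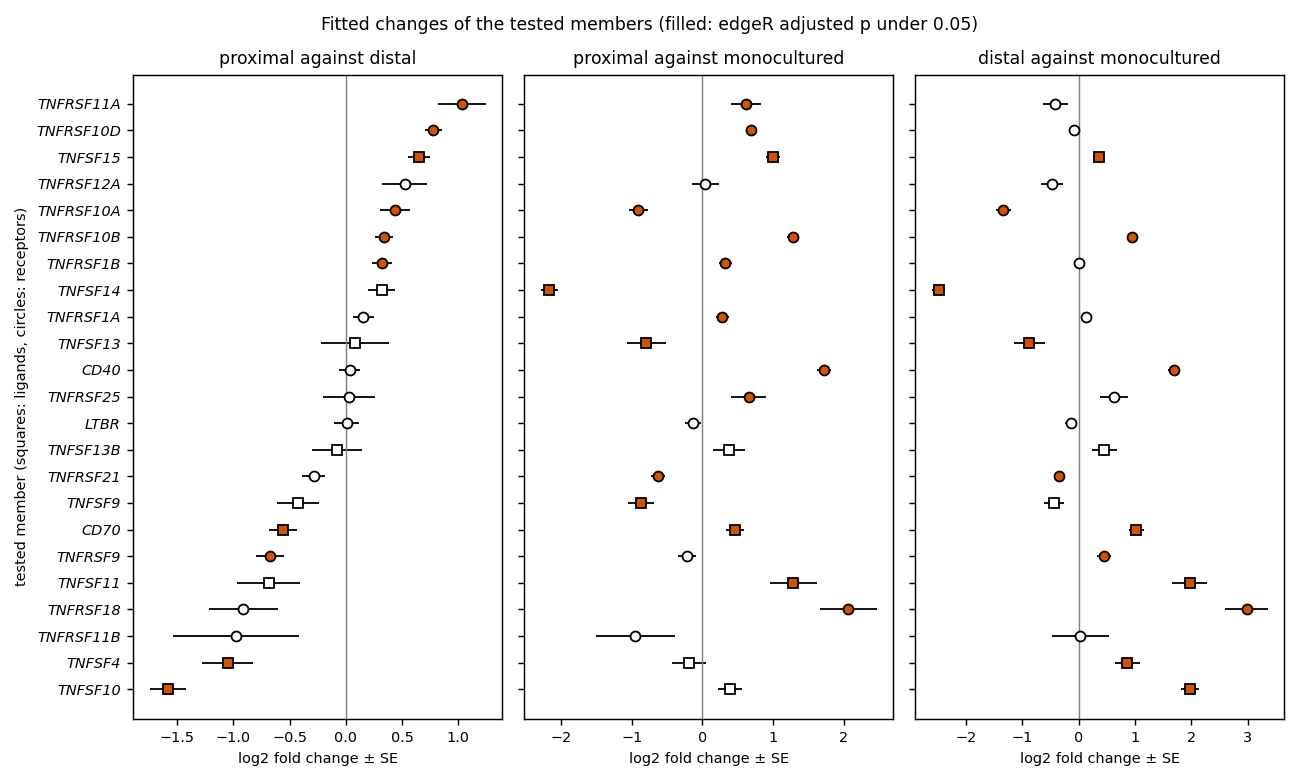
log2 fold changes (x axis, edgeR, bars ± SE) of the 23 tested members (rows in the order of the proximal against distal change, squares for ligands and circles for receptors) in the 3 comparisons, filled points where the adjusted p was under 0.05. TNFSF14 lies farthest left against monoculture and TNFRSF18 farthest right, while TNFSF10 lies farthest left in proximal against distal libraries.

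Among the 9 tested ligands, 1 rose and 3 fell in proximal against distal libraries, and 5 did not pass, beside 8.4% and 7.93% of all genes. TNFSF15, the ligand of the death-domain receptor TNFRSF25, was graded over the groups. TNFSF15 (chromosome 9, 114784652 to 114806039, minus strand, GRCh38.p13) stood at 304, 323 and 261 CPM in the proximal libraries, 186, 201 and 181 CPM in the distal and 136, 149 and 159.9 CPM in the monocultured ones. None of the groups overlapped. Its level was 1.57-fold higher in proximal than in distal libraries (log2 fold change 0.65 ± 0.10 SE, n = 3 against 3, edgeR adjusted p = 0.000473) and 2.00-fold higher than in monoculture (log2 1.00 ± 0.10, edgeR adjusted p = 1.34e-06). Distal libraries were 1.27-fold above monoculture (log2 0.35 ± 0.10, edgeR adjusted p = 0.00998), a call lost without monocultured replicate 1 (edgeR adjusted p = 0.0526).

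TNFSF10, which encodes the death ligand TRAIL, was high in the distal gate alone. TNFSF10 (chromosome 3, 172505508 to 172523475, minus strand) stood at 6.45, 7.84 and 5.88 CPM in proximal, 17.2, 23.6 and 19.6 CPM in distal and 5.13, 4.84 and 5.35 CPM in monocultured libraries. Every distal library was above every other library. Distal libraries were 3.00-fold above proximal ones (proximal against distal log2 -1.58 ± 0.16, edgeR adjusted p = 1.95e-05) and 3.93-fold above monoculture (log2 1.98 ± 0.16, edgeR adjusted p = 2.61e-07). Proximal libraries also lay above all monocultured ones, with a log2 fold change of 0.39 ± 0.17 that did not pass (edgeR adjusted p = 0.0789), while it passed without proximal replicate 3 (edgeR adjusted p = 0.0386).

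TNFSF14, also named LIGHT, a ligand of LTBR and TNFRSF14, had the largest fall of any tested member against monoculture. TNFSF14 (chromosome 19, 6661253 to 6670588, minus strand) stood at 176, 154 and 161 CPM in monoculture, 37.4, 31.7 and 39.9 CPM in proximal and 29.6, 25.4 and 32.6 CPM in distal libraries. The monocultured libraries stood clear of both gates, and the gates overlapped. Its level was 4.50-fold lower in proximal libraries than in monoculture (log2 -2.17 ± 0.12, edgeR adjusted p = 2.48e-09) and 5.60-fold lower in distal ones (log2 -2.49 ± 0.12, edgeR adjusted p = 8.85e-10). Between the gates the log2 fold change was 0.32 ± 0.12, which did not pass (95% interval 0.07 to 0.57, edgeR adjusted p = 0.0836).

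CD70 and TNFSF9, costimulatory ligands of CD27 and TNFRSF9, lie beside TNFSF14 on chromosome 19 and moved in different directions. CD70 (chromosome 19, 6583183 to 6604103, minus strand) stood at 33.1, 36.4 and 45.8 CPM in proximal, 60.5, 49.1 and 60.4 CPM in distal and 28.5, 27.2 and 28.0 CPM in monocultured libraries. None of these groups overlapped, and the distal libraries were highest. CD70 was 1.47-fold higher in distal than in proximal libraries (proximal against distal log2 -0.56 ± 0.13, edgeR adjusted p = 0.00813), 1.38-fold higher in proximal libraries than in monoculture (log2 0.46 ± 0.13, edgeR adjusted p = 0.00975) and 2.03-fold higher in distal ones (log2 1.02 ± 0.13, edgeR adjusted p = 1.94e-05). TNFSF9 (chromosome 19, 6531026 to 6535924, plus strand) stood at 12.3, 9.02 and 16.5 CPM in proximal, 16.3, 15.5 and 19.2 CPM in distal and 26.2, 21.1 and 22.2 CPM in monocultured libraries. Monoculture was highest without overlap, and proximal replicate 3 reached into the distal range. TNFSF9 was 1.83-fold lower in proximal libraries than in monoculture (log2 -0.87 ± 0.18, edgeR adjusted p = 0.00144), and its change in distal libraries did not pass (log2 -0.44 ± 0.18, edgeR adjusted p = 0.0598), but passed in 7 of 19 alternatives, that without proximal replicate 3 among them (edgeR adjusted p = 0.0122). Between the gates it did not pass (log2 -0.43 ± 0.18, edgeR adjusted p = 0.137), but it passed without proximal replicate 3 (log2 -0.68, edgeR adjusted p = 0.00648).

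**Figure D2:**
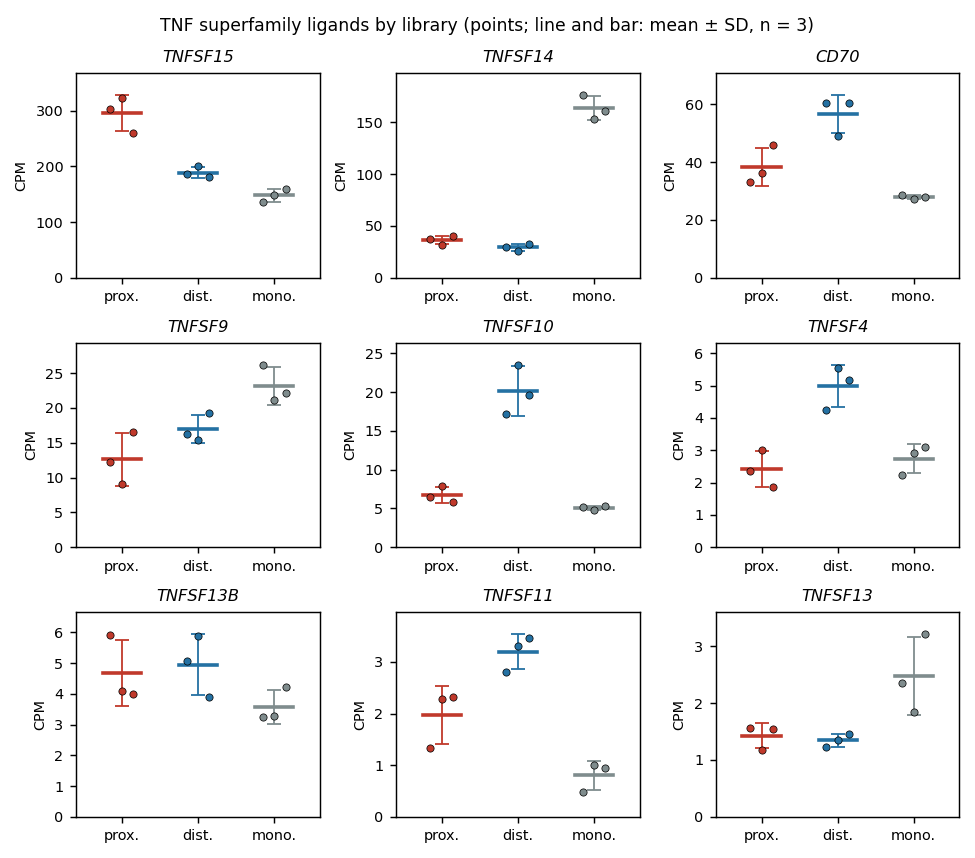
CPM (y axis, from 0, a scale for each gene) of the 9 tested ligands in each library of the proximal (prox.), distal (dist.) and monocultured (mono.) groups, with the mean and SD. TNFSF15 is highest in proximal, TNFSF10 and CD70 in distal and TNFSF14 in monocultured libraries.

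Of the 4 remaining ligands, 3 passed a test at means below 5 CPM, and they are named here after their values were seen. TNFSF4, the ligand of the T cell receptor TNFRSF4, stood at 4.25, 5.53 and 5.17 CPM in distal libraries against 2.37, 3.01 and 1.87 CPM in proximal and 2.22, 2.92 and 3.09 CPM in monocultured ones. Distal libraries were above all others, 2.07-fold over proximal (edgeR adjusted p = 0.00623) and 1.82-fold over monoculture (edgeR adjusted p = 0.00654). TNFSF11, the osteoclast factor RANK ligand, stood at 1.33, 2.27 and 2.33 CPM in proximal, 2.81, 3.31 and 3.47 CPM in distal and 0.485, 0.996 and 0.945 CPM in monocultured libraries. It was 2.43-fold above monoculture in proximal libraries (edgeR adjusted p = 0.00621) and 3.92-fold above it in distal ones (edgeR adjusted p = 0.000182). TNFSF13, a B cell ligand, was lower in proximal libraries (1.43 ± 0.220 CPM, SD, n = 3) than in monoculture (2.47 ± 0.689 CPM, edgeR adjusted p = 0.0328) and lower in distal ones (1.35 ± 0.113 CPM, edgeR adjusted p = 0.0219). The proximal call was lost without proximal replicate 1 or 2 or monocultured replicate 1 or 3 (edgeR adjusted p = 0.0561 to 0.168), and the distal call without distal replicate 1 or 2 or monocultured replicate 3 (edgeR adjusted p = 0.0511 to 0.119). The proximal call was also lost with DESeq2 (Wald test adjusted p = 0.0593), with no filter (edgeR adjusted p = 0.0751) and in a fit of the 2 groups (edgeR adjusted p = 0.0510). Only 44.5% of TNFSF13's exonic bases are free of other genes, so its counts leave out pairs. TNFSF13B, another B cell ligand, ranged from 3.26 to 5.93 CPM and was not called in any comparison.

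The promoters of the 4 called ligands and receptors below are shown because their genes took 3 patterns over the groups: TNFSF10 and TNFRSF9 highest in distal, TNFSF15 in proximal and TNFSF14 in monocultured libraries. Each run is 300 bases, 250 before to 50 after the RefSeq start (GRCh38.p14), 5′ to 3′ on the gene's strand. The runs lie at chr3:172523381-172523680 (TNFSF10), chr9:114792481-114792780 (TNFSF15), chr19:6670111-6670410 (TNFSF14) and chr1:7940790-7941089 (TNFRSF9), all on the minus strand. Those of TNFSF15, TNFSF14 and TNFRSF9 lie wholly inside the gene as counted, and that of TNFSF10 spans its annotated start. Capitals mark matches, on either strand, to a kappaB pattern (GGGA, any 2 bases, TTCC), an AP-1 pattern (TGANTCA) or an interferon-stimulated response element pattern (GAAA, any 2 bases, GAAA).
TNFSF10: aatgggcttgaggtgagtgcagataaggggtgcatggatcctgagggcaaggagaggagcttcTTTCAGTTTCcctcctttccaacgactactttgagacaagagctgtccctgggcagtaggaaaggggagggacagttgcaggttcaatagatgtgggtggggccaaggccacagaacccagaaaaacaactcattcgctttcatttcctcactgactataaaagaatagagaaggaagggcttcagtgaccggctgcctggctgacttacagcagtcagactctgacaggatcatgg
TNFSF15: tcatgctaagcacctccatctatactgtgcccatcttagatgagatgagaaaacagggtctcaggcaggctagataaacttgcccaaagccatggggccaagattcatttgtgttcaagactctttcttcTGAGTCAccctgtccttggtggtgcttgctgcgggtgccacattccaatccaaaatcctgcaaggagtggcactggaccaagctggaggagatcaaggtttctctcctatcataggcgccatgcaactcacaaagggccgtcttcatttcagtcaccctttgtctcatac
TNFSF14: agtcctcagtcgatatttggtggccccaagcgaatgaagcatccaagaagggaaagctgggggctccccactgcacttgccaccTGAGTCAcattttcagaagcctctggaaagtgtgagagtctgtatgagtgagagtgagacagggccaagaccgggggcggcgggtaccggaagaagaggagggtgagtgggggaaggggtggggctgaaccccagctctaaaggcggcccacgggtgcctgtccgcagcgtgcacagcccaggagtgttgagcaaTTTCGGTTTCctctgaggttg
TNFRSF9: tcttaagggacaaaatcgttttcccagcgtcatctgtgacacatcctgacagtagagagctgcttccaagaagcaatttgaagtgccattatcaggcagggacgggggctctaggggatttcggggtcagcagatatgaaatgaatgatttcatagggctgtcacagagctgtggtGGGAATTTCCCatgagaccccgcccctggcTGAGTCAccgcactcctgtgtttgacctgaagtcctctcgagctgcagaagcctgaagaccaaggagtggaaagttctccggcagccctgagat
In TNFSF10 the capitals are the interferon pattern 187 bases before the start, and in TNFSF15 they are the AP-1 pattern 120 bases before it. TNFSF14 has the AP-1 pattern 166 bases before the start and the interferon pattern from base 30 after it. TNFRSF9 has overlapping kappaB matches, one on each strand, from 74 bases before the start and the AP-1 pattern 44 bases before it. Of 28 members whose promoters were searched, 2 held the kappaB pattern, 6 the AP-1 pattern and 6 the interferon pattern. The shares of 27305 promoters were 1.63%, 7.76% and 3.65%. The receptors of TNFSF10 were not among the 28, so these counts do not describe the whole family. Among the 16 tested of these 28 members the counts were 1, 3 and 5. All 4 promoters shown held a match. Those of TNFSF4, TNFRSF11A and TNFRSF21, highest in distal, proximal and monocultured libraries in that order, were not shown and held none. A looser kappaB pattern (GGG, any 5 bases, CC) was tried first and replaced once it was found in 58.0% of promoters. A match describes the letters only.

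All 5 tested death-domain receptors passed a test against monoculture in proximal libraries, 3 rising and 2 falling, beside 22.4% and 23.1% of all genes. TNFRSF10B and TNFRSF10A, neighbouring receptors for TNFSF10 on chromosome 8, went in opposite directions. TNFRSF10B (chromosome 8, 23020133 to 23069031, minus strand) stood at 268, 264 and 295 CPM in proximal, 224, 207 and 224 CPM in distal and 115, 111 and 114 CPM in monocultured libraries. The groups were graded without overlap. It was 2.44-fold above monoculture in proximal libraries (log2 1.28 ± 0.08, edgeR adjusted p = 1.15e-08), 1.93-fold above it in distal ones (log2 0.95 ± 0.08, edgeR adjusted p = 3.51e-07) and 1.26-fold higher in proximal than in distal libraries (log2 0.34 ± 0.08, edgeR adjusted p = 0.00965). TNFRSF10A (chromosome 8, 23190452 to 23225102, minus strand) stood at 24.6, 21.2 and 25.1 CPM in proximal, 20.6, 14.8 and 17.0 CPM in distal and 49.3, 43.2 and 40.7 CPM in monocultured libraries. Monoculture was highest, 1.88-fold above proximal (log2 -0.91 ± 0.13, edgeR adjusted p = 6.35e-05) and 2.54-fold above distal libraries (log2 -1.34 ± 0.13, edgeR adjusted p = 1.95e-06). Between the gates TNFRSF10A was 1.35-fold higher in proximal libraries (log2 0.44 ± 0.14, edgeR adjusted p = 0.0423), a call lost without proximal replicate 1 or 3, distal replicate 2 or 3, or monocultured replicate 2 or 3 (edgeR adjusted p = 0.0527 to 0.127).

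The other death-domain receptors changed less. TNFRSF21 (chromosome 6, 47231532 to 47309905, minus strand), also named DR6, stood at 45.8, 47.8 and 43.7 CPM in proximal, 53.3, 59.8 and 54.5 CPM in distal and 74.1, 76.5 and 62.9 CPM in monocultured libraries, in 3 ranges that did not overlap. It was 1.55-fold lower in proximal libraries than in monoculture (log2 -0.64 ± 0.10, edgeR adjusted p = 0.000130) and 1.27-fold lower in distal ones (log2 -0.35 ± 0.10, edgeR adjusted p = 0.0113), the latter lost without distal replicate 1 or monocultured replicate 2 (edgeR adjusted p = 0.0554 and 0.0605). Proximal against distal libraries gave a log2 of -0.29 ± 0.10 that did not pass (edgeR adjusted p = 0.0665), but passed in 3 of 19 alternatives. TNFRSF1A, the broadly expressed death-domain receptor for TNF, stood at 94.0, 93.8 and 107 CPM in proximal, 87.7, 81.9 and 95.3 CPM in distal and 81.5, 82.1 and 79.1 CPM in monocultured libraries. It was 1.22-fold higher in proximal libraries than in monoculture (log2 0.28 ± 0.09, edgeR adjusted p = 0.0205), a call lost without proximal replicate 3 or monocultured replicate 1 or 3 (edgeR adjusted p = 0.0502 to 0.0613). TNFRSF25, the receptor for TNFSF15, stood at 6.89, 5.87 and 9.18 CPM in proximal, 7.48, 7.02 and 7.12 CPM in distal and 5.27, 5.97 and 2.83 CPM in monocultured libraries, and the proximal and monocultured ranges overlapped. Its 1.57-fold rise in proximal libraries against monoculture (log2 0.65 ± 0.24, edgeR adjusted p = 0.0410) was lost without proximal replicate 1 or 3, distal replicate 3, or monocultured replicate 1 or 3 (edgeR adjusted p = 0.0505 to 0.159), and without proximal replicate 3 and distal replicate 2 together (edgeR adjusted p = 0.0833). That call was also lost in a fit of the 2 groups (edgeR adjusted p = 0.0622). In distal libraries, which all lay above monoculture, the log2 fold change was of like size at 0.63 ± 0.24 and did not pass (edgeR adjusted p = 0.0511), but passed in 11 of 19 alternatives.

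Of the 7 tested receptors of the TRAF-binding kind, 4 rose in proximal libraries against monoculture, beside 22.4% of all genes, and 3 did not pass, while CD40 separated both gates from monoculture. CD40 (chromosome 20, 46118278 to 46129863, plus strand), through which T cells activate antigen-presenting cells, stood at 112, 105 and 103 CPM in proximal, 100.3, 104 and 108 CPM in distal and 36.3, 30.2 and 30.4 CPM in monocultured libraries. Both gates stood clear of monoculture and overlapped each other. It was 3.30-fold above monoculture in proximal libraries (log2 1.72 ± 0.10, edgeR adjusted p = 3.70e-09) and 3.22-fold above it in distal ones (log2 1.69 ± 0.10, edgeR adjusted p = 5.64e-09). Between the gates the 95% interval of the log2 fold change was -0.16 to 0.23 (edgeR adjusted p = 0.852).

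TNFRSF1B, the TNF receptor that lacks a death domain, was highest in proximal libraries. TNFRSF1B (chromosome 1, 12166991 to 12209228, plus strand) stood at 1020.3, 996 and 1138 CPM in proximal, 864, 760.3 and 899 CPM in distal and 913, 828 and 782 CPM in monocultured libraries. The proximal libraries were above all others, and the distal and monocultured ranges overlapped. It was 1.25-fold above monoculture in proximal libraries (log2 0.32 ± 0.09, edgeR adjusted p = 0.00931) and 1.25-fold above distal ones (log2 0.32 ± 0.09, edgeR adjusted p = 0.0252). The latter call was lost without proximal replicate 1 or distal replicate 1 or 2 (edgeR adjusted p = 0.0539 to 0.0748) and with upper-quartile scaling (edgeR adjusted p = 0.0926). A fit of the 2 groups also lost it (edgeR adjusted p = 0.0613). Between distal and monocultured libraries the 95% interval was -0.19 to 0.19.

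TNFRSF9 and TNFRSF11A separated the gates in opposite directions. TNFRSF9 (chromosome 1, 7915871 to 7943165, minus strand), the receptor of TNFSF9, stood at 22.7, 24.7 and 21.5 CPM in proximal, 33.1, 43.9 and 32.9 CPM in distal and 26.8, 26.5 and 26.9 CPM in monocultured libraries. The monocultured libraries lay between the gates without overlap. It was higher in distal than in proximal libraries (proximal against distal log2 -0.68 ± 0.12, edgeR adjusted p = 0.00227) and 1.37-fold higher in distal libraries than in monoculture (log2 0.45 ± 0.12, edgeR adjusted p = 0.00875). TNFRSF11A (chromosome 18, 62325287 to 62391288, plus strand), the receptor of TNFSF11, stood at 10.3, 8.87 and 10.9 CPM in proximal, 4.32, 3.85 and 6.45 CPM in distal and 7.97, 5.12 and 6.49 CPM in monocultured libraries. Proximal libraries were above all others, and the distal and monocultured ranges overlapped. It was 2.04-fold above distal libraries (log2 1.03 ± 0.21, edgeR adjusted p = 0.00448) and 1.53-fold above monoculture (log2 0.62 ± 0.21, edgeR adjusted p = 0.0250), the second call lost without proximal replicate 1 or monocultured replicate 2 or 3 (edgeR adjusted p = 0.0651 to 0.107).

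TNFRSF18, the receptor of TNFSF18, rose in both gates against monoculture at under 5 CPM, and it is named here after its values were seen. It stood at 3.04, 2.13 and 2.33 CPM in proximal, 4.94, 4.59 and 4.56 CPM in distal and 1.18, 0.356 and 0.252 CPM in monocultured libraries, with 17, 5 and 4 counts behind the monocultured values. The groups did not overlap. It was 4.19-fold above monoculture in proximal (log2 2.07 ± 0.40, edgeR adjusted p = 0.000793) and 7.88-fold above it in distal libraries (log2 2.98 ± 0.37, edgeR adjusted p = 1.93e-05). Without monocultured replicate 1, which holds most of the monocultured counts, these log2 fold changes were 3.01 and 3.92, so the folds depend on that library. Its log2 fold change of -0.91 ± 0.30 between the gates did not pass (edgeR adjusted p = 0.0560), but passed in 10 of 19 alternatives (adjusted p = 0.0137 to 0.158 over all 19). TNFRSF12A, the receptor of TNFSF12, was not called and spread widely: 62.3, 67.3 and 103 CPM in proximal, 61.5, 41.2 and 59.7 CPM in distal and 90.6, 62.9 and 73.0 CPM in monocultured libraries. Its proximal replicate 3 and distal replicate 2 are the highest and the lowest of the 9, and in 7 of 19 alternatives, that without both among them (edgeR adjusted p = 0.0217), it was lower in distal libraries than in monoculture. LTBR, which binds lymphotoxin and TNFSF14, was not called, at 59.6 ± 7.20 CPM in proximal, 59.4 ± 4.30 CPM in distal and 65.6 ± 6.51 CPM in monocultured libraries (SD, n = 3), and without proximal replicate 3 and distal replicate 2 it was lower in proximal libraries than in monoculture (edgeR adjusted p = 0.0412).

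Of the decoy or soluble receptors, TNFRSF10D, a decoy for TNFSF10 with a truncated death domain, separated the proximal gate alone. TNFRSF10D (chromosome 8, 23135588 to 23164027, minus strand) stood at 168, 173 and 173 CPM in proximal, 99.5, 101 and 99.5 CPM in distal and 109, 100.1 and 109 CPM in monocultured libraries. Every proximal library was above all others, and the distal and monocultured ranges overlapped. It was 1.71-fold above distal libraries (log2 0.78 ± 0.08, edgeR adjusted p = 2.03e-05) and 1.61-fold above monoculture (log2 0.69 ± 0.08, edgeR adjusted p = 5.76e-06), while distal against monocultured libraries gave a 95% interval of -0.26 to 0.08. The TNFSF10 system thus held all 3 patterns: its ligand was highest in distal libraries, TNFRSF10B and TNFRSF10D in proximal ones and TNFRSF10A in monoculture. TNFRSF11B, a soluble receptor for TNFSF11 and TNFSF10, ranged from 0.129 to 2.36 CPM and was not called.

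**Figure D3:**
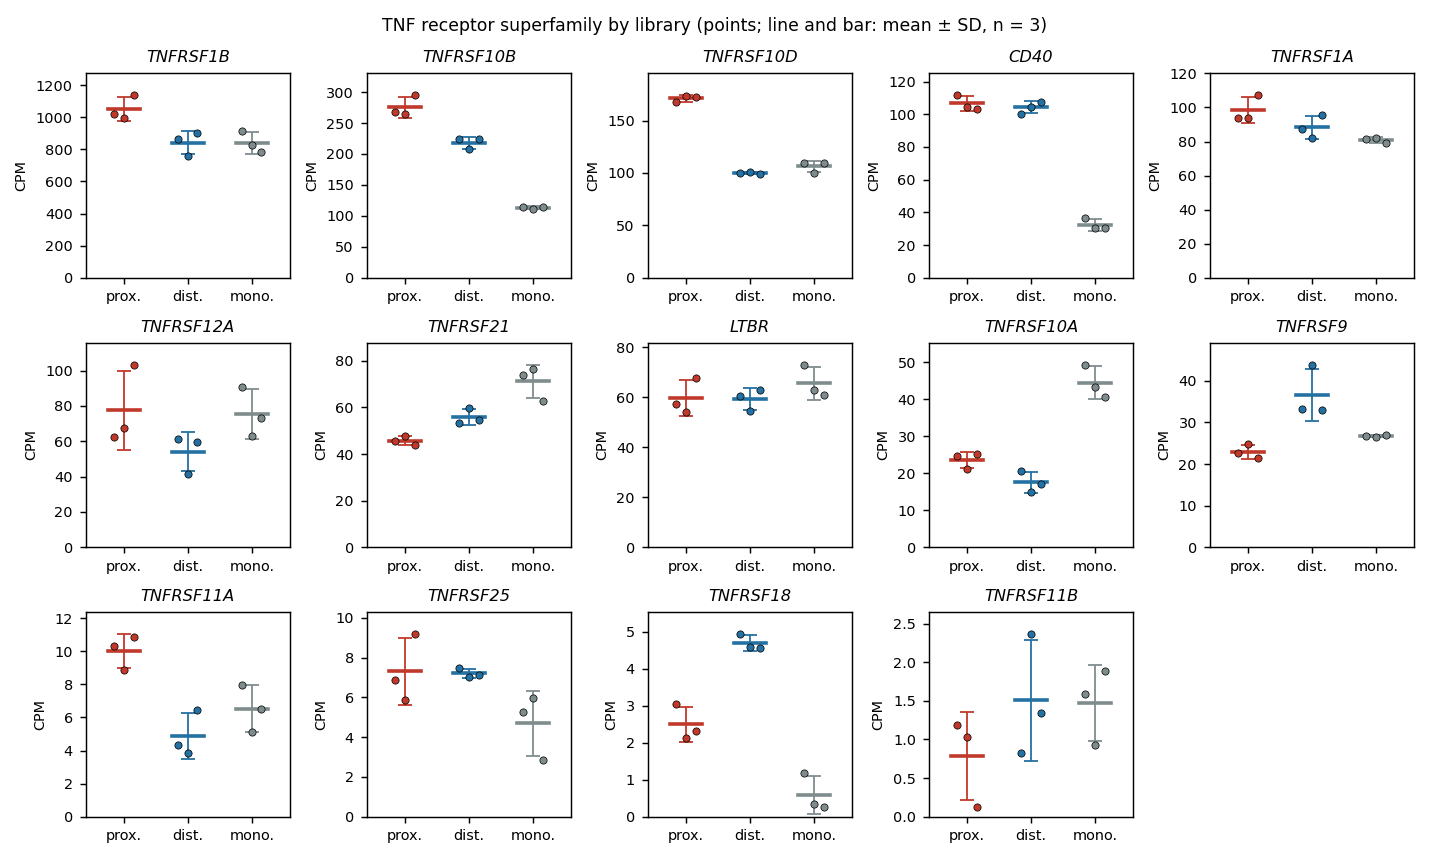
CPM (y axis, from 0, a scale for each gene) of tested receptors in each library of the proximal, distal and monocultured groups, with the mean and SD. CD40 is low only in monoculture, TNFRSF10D is high only in proximal libraries, and TNFRSF9 takes its highest values in distal ones.

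The other 20 members had too few counts for the test, and 3 of them, TNFRSF14, TNFRSF13B and TNFRSF6B, had 0 counts in all libraries. TNFRSF6B has no exonic base free of other genes, and TNFRSF14 lies on 2 sequences of the annotation, so a count of 0 for either shows nothing. TNF, LTA and LTB lie on 7 or 8 sequences each, and pairs that map to several of them were left out, so their counts may be too low. TNF, the founding cytokine of the family, had 0, 0 and 6 counts in proximal replicates 1 to 3 and 0 in every distal and monocultured library. LTA, the soluble lymphotoxin, had 8, 2 and 9 counts in proximal, 5, 11 and 16 in distal and 0, 1 and 1 in monocultured libraries. TNFRSF4, the receptor of TNFSF4, had 24, 9 and 16 counts in distal libraries against 2, 3 and 3 in proximal and 5, 0 and 1 in monocultured ones, so every distal library was above the rest. TNFSF18 had 21, 8 and 21 counts in monoculture, 1, 8 and 1 in proximal and 7, 4 and 10 in distal libraries. NGFR, the low-affinity neurotrophin receptor, had 8, 5 and 13 counts in distal libraries, 0, 0 and 3 in proximal and 2, 1 and 3 in monocultured ones. FAS, the death receptor of FASLG, had 1, 0 and 1 counts in proximal, 1, 6 and 4 in distal and 0 in the monocultured libraries, where 0 allows up to 3 counts a library by counting error alone. With no filter on low counts, edgeR called TNFRSF4 lower in proximal than in distal libraries (adjusted p = 0.00564) and higher in distal libraries than in monoculture (adjusted p = 0.000350), and LTA higher than monoculture in both gates (adjusted p = 0.00918 and 0.000500). That fit took the spread as nearly the same for all genes. It also called FAS higher in distal libraries than in monoculture (adjusted p = 0.0370), NGFR lower in proximal than in distal libraries (adjusted p = 0.0397), and TNFSF18 and TNFRSF10C lower in proximal libraries than in monoculture (adjusted p = 0.00207 and 0.0368). The other members held few counts over all 9 libraries: 60 for TNFRSF8, 42 for TNFRSF13C, 25 each for TNFSF8 and TNFRSF10C, 20 for CD27, and under 10 for TNFRSF17, TNFRSF19, TNFSF12, LTB, CD40LG and FASLG.

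Levels were compared between genes only as CPM per kilobase of exonic length (RPKM). On that scale TNFRSF1B was first in every group, at 278 ± 20.2 RPKM in proximal, 223 ± 19.1 RPKM in distal and 223 ± 17.6 RPKM in monocultured libraries (SD, n = 3). TNFRSF10B was next in proximal (55.0 ± 3.38 RPKM) and distal libraries (43.6 ± 1.88 RPKM), and ranked 5 in monoculture. TNFSF14 ranked 3 in monoculture (34.2 ± 2.41 RPKM) and 13 and 12 in proximal and distal libraries. CD40 ranked 5 in proximal, 3 in distal and 12 in monocultured libraries.

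**Figure D4:**
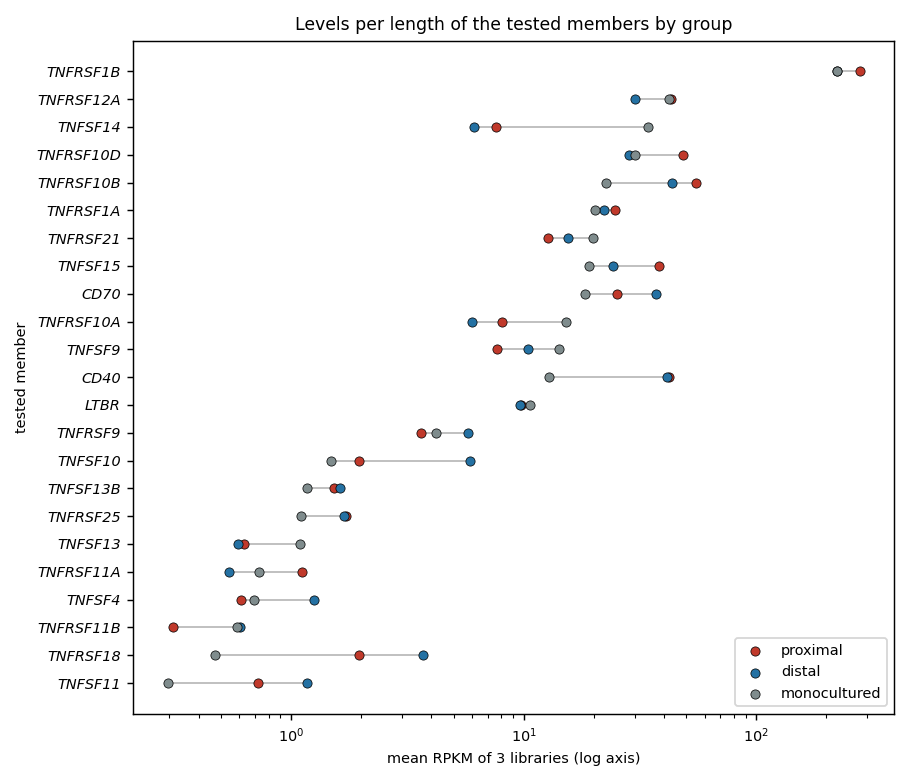
Mean RPKM of 3 libraries (x axis, log scale) of the tested members (rows) in the 3 groups (colours). TNFRSF1B lies above all other members in each group, and the points of TNFSF14 and CD40 for monoculture lie far from those of both gates.

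Genes that carry the signal inside the cell were counted from lists chosen by function, with earlier results of these data known. The shares of all genes called hold beside each list. They were 16.3% between the gates, and 45.5% and 42.4% against monoculture in proximal and distal libraries. Of 24 tested adaptors of TNF receptors, 7 rose and 1 fell in proximal against distal libraries, 15 rose and 2 fell against monoculture in proximal libraries, and 11 rose and 0 fell in distal ones. At an unadjusted edgeR p under 0.05, 3 were lower in distal libraries, and DESeq2 called 0. The median log2 fold changes were 0.20, 0.49 and 0.21. TNFAIP3, which restrains NF-kappaB signalling, averaged 508 CPM in proximal libraries, 624 in distal and 180 in monocultured ones, and was lower in proximal than in distal ones (log2 -0.30 ± 0.07 SE, edgeR adjusted p = 0.0123). TRAF1, an adaptor of TNFRSF1B, TNFRSF9 and CD40, had means of 338, 273 and 122 CPM in the same order, and was higher in proximal than in distal libraries (log2 0.31 ± 0.08, edgeR adjusted p = 0.0160). BIRC3, a ubiquitin ligase of the receptor complex, was also higher in proximal than in distal libraries (log2 0.59 ± 0.13, edgeR adjusted p = 0.00755).

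Of 14 tested NF-kappaB subunits, kinases and inhibitors, 10 rose and 1 fell in proximal libraries against monoculture, 9 rose and 1 fell in distal ones, and 0 were called in proximal against distal libraries (edgeR), beside 45.5%, 42.4% and 16.3% of all genes called in either direction. At an unadjusted edgeR p under 0.05, 2 were higher and 2 lower between the gates, and DESeq2 called 1 lower. NFKBIZ, an inducible nuclear regulator, averaged 317 CPM in proximal libraries, 317 in distal and 22.1 in monocultured ones (log2 3.84 ± 0.12 SE in each gate against monoculture, edgeR adjusted p = 2.56e-11 and 3.69e-11). REL, a subunit, averaged 130 CPM in proximal libraries, 132 in distal and 29.5 in monocultured ones (log2 2.14 ± 0.13 and 2.16 ± 0.13, edgeR adjusted p = 8.53e-09 and 9.73e-09).

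In the death receptor pathway, 4 of 10 tested genes rose and 0 fell in proximal against distal libraries, 2 rose and 2 fell in proximal libraries against monoculture, and 2 rose and 4 fell in distal ones. At an unadjusted edgeR p under 0.05, 1 was lower in proximal than in distal libraries, and DESeq2 called 0. BID, which carries the death receptor signal to mitochondria, averaged 204 CPM in proximal libraries, 139 in distal and 88.2 in monocultured ones (proximal against distal log2 0.55 ± 0.09 SE, edgeR adjusted p = 0.000777). CFLAR, an inhibitor of caspase activation at the receptors, had means of 527, 445 and 325 CPM in the same order. MLKL, the effector of necroptosis, was lower than in monoculture in proximal (log2 -1.61 ± 0.16, edgeR adjusted p = 2.13e-06) and distal libraries (log2 -1.56 ± 0.16, edgeR adjusted p = 3.15e-06). Of 8 processing enzymes and their regulators, 2 rose and 1 fell between the gates, 4 rose and 1 fell in proximal libraries against monoculture, and 2 rose and 2 fell in distal ones. TIMP3, an inhibitor of the sheddase ADAM17, averaged 197 CPM in proximal libraries, 125 in distal and 793 in monocultured ones (log2 -2.01 ± 0.09 and -2.66 ± 0.10 against monoculture, edgeR adjusted p = 6.99e-10 and 9.11e-11). ADAM17, which releases TNF and several receptors, was higher in proximal libraries than in monoculture by a log2 of 0.28 ± 0.08 (edgeR adjusted p = 0.0123). Of 4 superfamily genes under other symbols, only RELT was tested and it was not called.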

How the data were processed

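The authors deposited raw counts of read pairs per gene name. Per the file headers, featureCounts 1.6.3 summed pairs over the exons of each gene name in GENCODE release 36, patch and haplotype sequences included, ignoring strand and leaving out pairs that map to several places or overlap several genes. Per the submitters' processing notes, Trim Galore 0.6.5, STAR 2.7.6a, R 4.1.3, DESeq2 1.34.0 and GRCh38.p13 were used.

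The test was edgeR 4.0.16 (R 4.3.3). After filterByExpr with its minimum count of 10 and minimum total of 15, 15427 genes remained. TMM scaling and a robust quasi-likelihood model were applied to the 9 libraries together, with a coefficient for each group and 6 residual degrees of freedom. An adjusted p under 0.05 counted as a call. CPM use TMM-scaled totals, and RPKM divide them by merged exonic length. The procedure was tested on simulated data. Members called in some comparison whose higher group averaged 5 CPM or more are given per library, and up to 4 pathway genes with the smallest p per list and comparison were eligible to be named. The members and lists were chosen with earlier results of these data known. Coordinates come from the tables, promoters from RefSeq. The promoters searched did not include those of TNFRSF10A, TNFRSF10B, TNFRSF10C, TNFRSF10D and TNFRSF11B. Libraries of the same replicate number did not deviate together in every pair, so numbers were not used as a block. Alternatives were DESeq2 1.42.0 (size factors, Wald test), upper-quartile scaling, other filters, GC trend removal, countable genes only, fits of 2 groups, a replicate block and leaving out libraries.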

Additional observations from a re-analysis of the deposited data

Results flagged for a closer look

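TNFRSF9 is listed because its 2 gates lay on opposite sides of the shared monoculture: all proximal libraries were below and all distal libraries above the monocultured ones. The difference between the gates was tested, and the log2 fold change of proximal against distal libraries was -0.68 ± 0.12 SE (edgeR adjusted p = 0.00227). The proximal side on its own did not pass against monoculture (log2 -0.22 ± 0.13, edgeR adjusted p = 0.168), and passed with each library's GC trend removed (log2 -0.25, edgeR adjusted p = 0.0357). Under that setting adjusted p can fall with little change in size. For TNFRSF12A in distal against monocultured libraries it went from 0.0659 (log2 -0.48) to 9.57e-05 (log2 -0.49, edgeR). Why was not tested, and the tallies of alternatives count that setting and the fit with no filter like the others.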

How the results depend on the processing

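Over the alternatives run, 0 member log2 fold changes reversed among calls, and 8 of 10 called members between the gates, 12 of 16 in proximal and 10 of 13 in distal libraries against monoculture kept their call in every one. Members lower in proximal than in distal libraries numbered 4, and 7 with no filter, with each library's GC trend removed, or without proximal replicate 3 and distal replicate 2. Leaving out 1 library at a time gave 4 to 6 of them, and 2 to 6 members lower in distal libraries than in monoculture, where the count was 4, fell to 2 without distal replicate 1, and was 6 without proximal replicate 3 and distal replicate 2. Pathway genes higher in proximal than in distal libraries numbered 13, and 5 with upper-quartile scaling, 25 with the GC trend removed, 4 in a fit of the 2 groups and 21 without those 2 libraries (6 to 18 with 1 library left out). Those lower numbered 2, and 5, 5, 1 and 9 under the same settings, 4 with at least 50 counts in 3 libraries, and 0 to 4 with 1 library left out. Against monoculture, the lower pathway genes numbered 6 in proximal libraries (10 without those 2 libraries, 5 to 8 with 1 left out) and 7 in distal ones (13 with the GC trend removed, 4 to 9 with 1 left out). The cause was not tested. The ratio of summed tumour markers was 1.81 for proximal to distal, 1.97 for proximal to monocultured and 1.09 for distal to monocultured libraries, and 1.15, 2.33 and 2.02 without NT5E. With the replicate number as a block, 8 members rose and 5 fell between the gates, and 9 rose and 6 fell in distal libraries against monoculture. Deviations of equal-numbered libraries correlated at -0.159 to 0.296. With 3 libraries a group, these values cannot decide whether equal-numbered libraries were paired. The count filter left out 20 members, and their values with no filter rest on at most 24 counts a library.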
